A study of Mus musculus with 12 samples.

Results

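Axin2, Tcf7 and Smo, 3 genes of the Wnt and Hedgehog pathways, were followed in mouse bone marrow mesenchymal stem cells (BMSCs) that had been put into osteogenic medium with or without α-asarone, a phenylpropanoid of Acorus oil. The genes were picked by symbol, and all 3 were found among the 658 genes of the table analysed here. Each group had 6 libraries of poly(A) RNA, and in both the labels give the genotype as wild type (WT). Both groups received the same osteogenic medium, a base with 15% fetal bovine serum to which dexamethasone (100 nM), sodium β-glycerophosphate (10 mM) and ascorbic acid (50 µM) had been added. The study set out to follow the transcriptional response to the agent during osteogenic induction. The labels of the treated group spell the agent α-Asaronel, read here as α-asarone. The control is given only as control. The sources used here give no dose, exposure time, mouse strain or age, nor what the controls received in place of the agent.

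In the canonical Wnt pathway, a Wnt ligand at a Frizzled and LRP receptor pair stops the breakdown of β-catenin, which then joins TCF/LEF factors on target genes. Axin2 is a scaffold of the β-catenin destruction complex and is itself a target of the pathway, so that its mRNA is widely read as a feedback output. Tcf7 encodes TCF1, a TCF/LEF factor that is best known from T lymphocytes and is also a Wnt target. Smo encodes Smoothened, the membrane protein that carries the Hedgehog signal to the GLI factors once the ligand relieves it from Patched. Its activity is set mainly after translation, at the primary cilium, so its mRNA is a measure of the transducer's supply and not of signalling. Both pathways act in osteoblast differentiation.

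The RefSeq promoter windows of Axin2 and Smo are shown because they are the regulatory sequences of the feedback target and of the gene that changed here. Each runs from 250 bases before to 50 bases after the annotated start, 5′ to 3′ on the gene's strand, with the bases from the start onward in capitals. They lie at chr11:108920099-108920398 (Axin2) and chr6:29735247-29735546 (Smo), both on the plus strand of GRCm38.p6.
Axin2: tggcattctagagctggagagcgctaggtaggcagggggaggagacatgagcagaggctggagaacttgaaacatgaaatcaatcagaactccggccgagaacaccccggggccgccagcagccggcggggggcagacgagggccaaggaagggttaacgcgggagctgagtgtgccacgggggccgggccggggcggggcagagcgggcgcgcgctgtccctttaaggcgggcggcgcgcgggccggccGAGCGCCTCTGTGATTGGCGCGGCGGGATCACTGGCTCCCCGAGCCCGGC
Smo: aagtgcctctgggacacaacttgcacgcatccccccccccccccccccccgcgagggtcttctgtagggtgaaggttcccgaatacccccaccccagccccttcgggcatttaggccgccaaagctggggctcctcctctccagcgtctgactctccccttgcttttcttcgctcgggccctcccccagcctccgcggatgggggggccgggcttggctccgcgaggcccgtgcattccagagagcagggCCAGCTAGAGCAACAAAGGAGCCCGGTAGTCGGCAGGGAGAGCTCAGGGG
The Axin2 window had a GC content of 70.0% and the Smo window 67.7%, against a median of 52.7% over 32817 windows of the same length. On either strand, neither window held the TCF/LEF cores CTTTGAT (found in 3.73% of all windows) or CTTTGAA (5.14%), the GLI motif GACCACCCA (0.253%) or the nuclear receptor motif known as DR1 (0.0396%), nor did either of the 2 Tcf7 windows. The motifs do not overlap one another, and the search says only that these letters are not in these windows. No search over all windows was made for other forms of the motifs. CTTTGTT, another form of the TCF/LEF core, lies in the Smo window on the minus strand (AACAAAG as printed, after the start). Its share over all windows was not counted, and the Tcf7 windows were not searched for it. The match therefore cannot be taken as particular to Smo.

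Smo was the member whose level rose with α-asarone. Smo (ENSMUSG00000001761, chromosome 6, 29735503 to 29761365, plus strand, GRCm38) had 41.3, 43.1, 42.3, 43.9, 39.4 and 39.8 TPM (a transcript level scaled to gene length and library) in α-asarone libraries 1 to 6. In control libraries 1 to 6 it had 38.3, 39.2, 38.1, 37.2, 40.1 and 35.6 TPM. Of the treated libraries 4 lay above every control, and 5 controls lay below every treated library, so that the groups overlapped only through α-asarone libraries 5 and 6 and control library 5. The means were 41.6 ± 1.80 TPM (SD, n = 6) and 38.1 ± 1.57 TPM (SD, n = 6). On estimated counts the log2 fold change came to 0.13 ± 0.03 (SE, edgeR's quasi-likelihood test, Benjamini-Hochberg adjusted p = 0.00283), a rise of 9.54% with a 95% confidence interval from 4.51% to 14.8%. On log2(TPM + 1), exact permutation of the library labels (2-sided, 924 arrangements, smallest possible p 0.00216) gave p = 0.00866.

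The rise of Smo was small. Over the 512 genes tested, 155 (30.3%) passed an adjusted p of 0.05, 66 of them higher (12.9%) and 89 lower (17.4%), and the called genes had a median absolute log2 fold change of 0.20. In 68.0% of the tested genes the absolute change was smaller than that of Smo. Of the 3 members 1 was called, a share close to that of all tested genes. TPM values of the groups did not overlap in 14.3% of the tested genes and overlapped in each of the 3 members. With the 24 alternative settings the log2 change of Smo lay between 0.11 and 0.17 and its p between 2.45e-04 and 0.0256, under 0.05 in each. That p was adjusted in all but the exact permutation test. In bulk RNA, more cells of a type that expresses Smo and more Smo RNA per cell cannot be told apart.

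**Figure D1:**
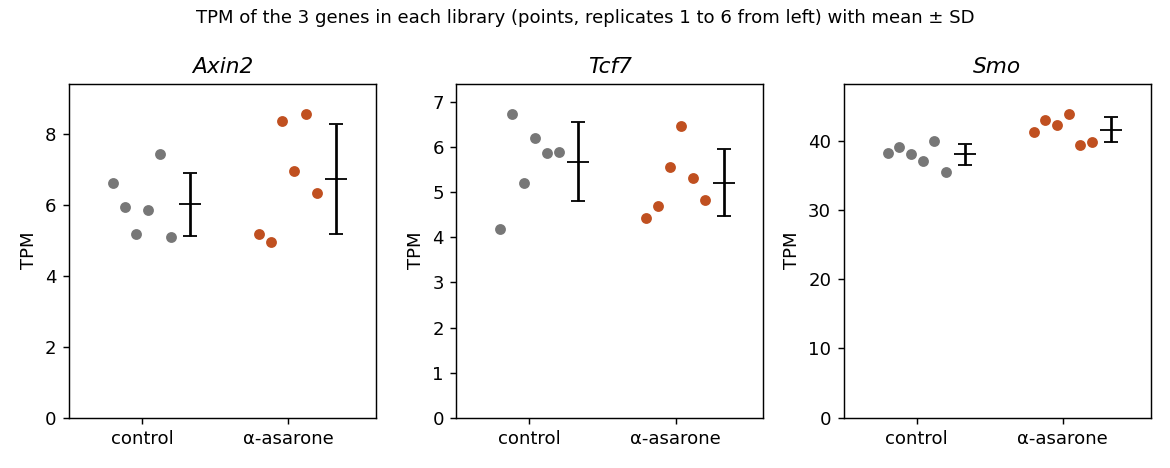
TPM of Axin2, Tcf7 and Smo (vertical axes, linear from 0) in the 6 control and 6 α-asarone libraries. Points are libraries in the order of their replicate number, and bars are the mean ± SD. Of the Smo values with α-asarone, 4 lie above every control, while the values of Axin2 and Tcf7 overlap widely.

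Axin2 did not differ between the groups beyond the spread of the libraries. Axin2 (ENSMUSG00000000142, chromosome 11, 108920349 to 108950783, plus strand, GRCm38) had 5.17, 4.96, 8.38, 6.98, 8.57 and 6.34 TPM in α-asarone libraries 1 to 6. In control libraries 1 to 6 it had 6.61, 5.94, 5.19, 5.86, 7.46 and 5.09 TPM. The treated group held both the lowest and the highest values of the 12 libraries. The treated mean was 6.73 ± 1.54 TPM (SD, n = 6) against a control mean of 6.02 ± 0.894 TPM (SD, n = 6), with an exact 2-sided permutation p of 0.394. On estimated counts, edgeR's quasi-likelihood test gave a log2 fold change of 0.04 ± 0.09 (SE, adjusted p = 0.73), and the change lay between −8.94% and 16.6% in its 95% interval. Without α-asarone replicate 5 the log2 change was −0.01.

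The TPM of Axin2 was more spread out between libraries than its counts. By the definition of TPM, the ratio of a gene's count to its TPM within a library follows the effective length that the quantification gave the gene, which moves when reads are assigned to longer or shorter transcripts. That ratio, scaled for the library, was the same for Smo in all 12 libraries, with a coefficient of variation of 0.00065%. For Tcf7 it was between 97.7% and 103% of the gene's mean. For Axin2 it ran from 82.7% in α-asarone library 3 to 117% in α-asarone library 1. The coefficient of variation of Axin2, 11.2%, ranked 17 of 496 genes with over 20 counts in every library, against a median of 1.16%.

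Divided by the library scale alone, the counts of Axin2 were closer together than its TPM. They ran from 164 to 193 in controls, a coefficient of variation of 6.22% against 14.8% for TPM, and from 152 to 213 with α-asarone, 13.2% against 22.9%. Counting error at its mean count of 178 is 7.49%. The effective length averaged 96.7% ± 13.3 (SD, n = 6) of the gene's mean in treated and 103% ± 8.53 (SD, n = 6) in control libraries, a difference that did not pass an exact 2-sided permutation test (p = 0.314). GENCODE M21 lists 7 Axin2 transcripts of 477 to 4260 bases, 2 of Tcf7 and 2 of Smo. With the effective length of each library as an offset, a setting added after the data were seen, the log2 change of Axin2 was 0.14 (edgeR adjusted p = 0.461), and limma on log2(TPM + 1) gave 0.12 (adjusted p = 0.485). The estimate was larger with these than on counts alone, and it passed in none of the 3.

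**Figure D2:**
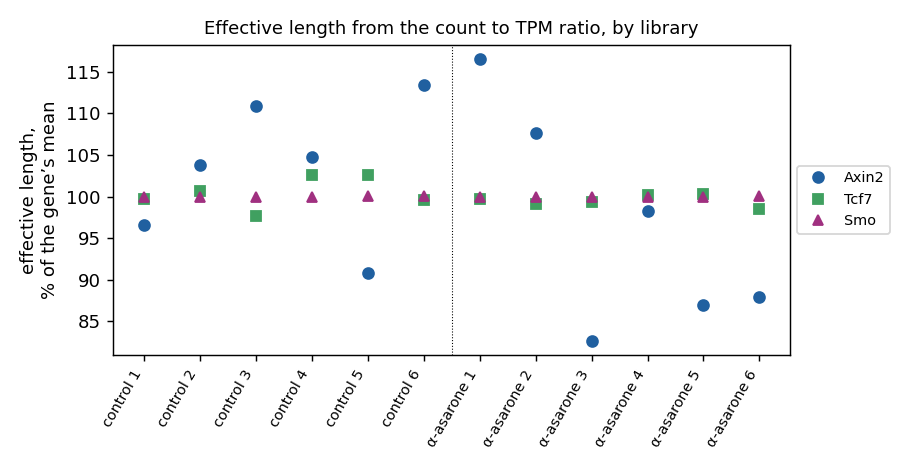
Effective length of Axin2, Tcf7 and Smo in each library, from the ratio of estimated count to TPM, as a percent of the gene's mean over the 12 libraries (vertical axis). Smo stays at 100.0% and Tcf7 within 97.7% to 103%, while Axin2 runs from 82.7% to 117%.

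Tcf7 was lower on average with α-asarone, by less than the libraries' spread. Tcf7 (ENSMUSG00000000782, chromosome 11, 52252371 to 52283014, minus strand, GRCm38) had 4.44, 4.69, 5.55, 6.46, 5.32 and 4.84 TPM in α-asarone libraries 1 to 6. In control libraries 1 to 6 it had 4.19, 6.74, 5.21, 6.20, 5.87 and 5.90 TPM. The controls held both the lowest and the highest values, and no treated library lay above all controls. The means were 5.22 ± 0.736 TPM (SD, n = 6) and 5.68 ± 0.885 TPM (SD, n = 6), with a fitted log2 fold change of −0.14 ± 0.12 (SE; adjusted p = 0.374 by edgeR). The 95% confidence interval reached from −23.0% to 6.81%, and the exact 2-sided permutation p was 0.353. In 24 alternative settings the change stayed below 0, from −0.22 to −0.06, and did not pass. It was −0.22 without control replicate 1, the library with the lowest Tcf7.

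Because Tcf7 is a T lymphocyte gene, the T lymphocyte markers were read beside it. Of 24 markers 3 were in the table. Cd3g, a chain of the T cell receptor complex, was listed at 0 in every library. Lck, the T cell kinase gene, reached at most 0.253 TPM, from at most 4 counts in a library. Il7r, the interleukin 7 receptor chain gene, which other marrow cells also express, rose from 1.57 ± 0.497 to 2.59 ± 0.718 TPM (SD, n = 6; log2 fold change 0.75 ± 0.18, edgeR adjusted p = 0.00168). The summed level of the 3 genes, most of it from Il7r, was 1.22 to 2.36 TPM in controls and 1.82 to 3.67 TPM with α-asarone. Whether T lymphocytes contributed to the Tcf7 level was not tested.

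The members differed in depth. Smo had a mean of 1314 estimated counts per library, Axin2 178 and Tcf7 111, with fitted coefficients of biological variation of 3.18%, 6.72% and 8.83%. The counts of the 3 genes were whole numbers in all 12 libraries. Among tested genes within 1.5-fold of the member in mean count, 38 of 123 were called near Smo, 16 of 52 near Axin2 and 12 of 51 near Tcf7, and the smallest absolute log2 change called there was 0.09, 0.20 and 0.27. The called genes nearest in count to Axin2 were Zfp959 (log2 fold change 0.29), Fkbp11 (−0.30), Icosl (−0.41) and Slc9a3r2 (−0.23). Those nearest to Tcf7 were Hoxc13 (−0.43), Tbx4 (0.40), Wnt9a (0.52) and Tbx2 (0.27), and those nearest to Smo were Prkar2b (0.19), Pex19 (−0.17), Paf1 (0.10) and Mcm3ap (−0.12). The call ended in 11 of 22 alternative settings for Tbx2, 9 of 23 for Zfp959 and 4 of 23 for Mcm3ap, and for Slc9a3r2 and Paf1 as given with the annotated genes. A change of Axin2 or Tcf7 as small as that of Smo was smaller than any called among genes of like count, and the interval of Axin2 includes a rise of 9.54%. Whether the 3 members differed from one another in their response was not tested.

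By level, Smo stood above 55.1% of the 512 tested genes, Axin2 above 14.6% and Tcf7 above 12.1%. The mean TPM of Smo was 6.32 times that of Axin2 in controls and 6.18 times with α-asarone. Among the 3 members Axin2 and Tcf7 stood next to each other, and Axin2 was the higher in 2 of 6 controls and in 6 of 6 treated libraries, a description for which no test was run. That order is on TPM, which for Axin2 also moved with its effective length. In control library 3 the values were 5.19 TPM for Axin2 and 5.21 TPM for Tcf7. Of 6 within-group relations on log2(TPM + 1), each over 6 libraries, none passed an exact permutation test with Benjamini-Hochberg adjustment. The highest r was that of Axin2 with Smo in controls (Pearson's r = 0.762, exact permutation p = 0.0792, adjusted p = 0.475; Spearman's rho = 0.886, exact permutation p = 0.0333, adjusted p = 0.2), and r was 0.165 without the 2 libraries farthest from the median of Axin2. The other Pearson's r values lay between −0.271 and 0.65.

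Genes whose log2(TPM + 1) followed a member most closely over the 12 libraries, after each group's mean was taken off, were sought among 454 tested genes of at least 5 TPM. For Axin2 they were Mpnd (r = 0.827) and Ndufa11 (0.759). For Tcf7 they were Bcl2l12 (0.826), Heatr6 (0.752) and Ercc1 (0.717), and for Smo Coq8b (0.841), Csnk1g2 (0.829) and Lman2l (0.783). Csnk1g2, a casein kinase 1 gene, is on the Wnt list and carries a deposited Hedgehog annotation. These are the highest values among many and are given as a description.

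The other Wnt genes of the table gave 1 rise and 2 falls. Of 170 genes on the Wnt lists 11 were in the table and 9 tested, Axin2 and Tcf7 among them, with a median log2 fold change of −0.10 against 0.0007 over all tested genes. The 3 calls among 9 genes are a share close to the 30.3% over all tested genes. All 3 were of genes other than Axin2 and Tcf7, so without these members the share is higher, over few genes. Among the ligands, Wnt9a rose and Wnt3 was listed at 0 in every library. Wnt9a (ENSMUSG00000000126, chromosome 11, 59306928 to 59333552) encodes a Wnt ligand of joint and limb development. It had 5.27, 5.19, 4.05, 4.66, 4.995 and 5.68 TPM in α-asarone libraries 1 to 6 and 2.58, 4.23, 3.25, 3.07, 3.80 and 4.09 TPM in control libraries 1 to 6. Of the treated libraries 5 lay above every control. The means were 4.97 ± 0.561 TPM and 3.50 ± 0.643 TPM (SD, n = 6 each), a rise of 43.4% (log2 fold change 0.52 ± 0.11 SE, edgeR adjusted p = 4.51e-04), and each of 22 alternative settings kept the call. The Wnt antagonist gene Sost was listed at 0 in every library, and no Wnt receptor gene of the list was analysed here.

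None of the 4 tested genes between receptor and nucleus was called, too few to set against the 30.3% called over all tested genes. Dvl3, which encodes a Dishevelled adaptor that binds Frizzled, had 36.5 ± 1.04 TPM (SD, n = 6) in treated and 38.5 ± 3.01 TPM (SD, n = 6) in control libraries (log2 fold change −0.10, adjusted p = 0.0617). It passed without control replicate 1 (edgeR adjusted p = 0.0122), without control replicate 2 (0.0431), without α-asarone replicate 4 (0.0428) and with a replicate block (0.0498). Csnk1g2 (log2 fold change 0.01) and the small GTPase gene Rac1 (−0.05), which acts in β-catenin-independent Wnt signalling, did not pass. Rac1 had counts that were whole in none of the libraries.

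In the nucleus and among targets, Hbp1 and Sox9 fell. Hbp1, which encodes a repressor of TCF-dependent transcription, ranged over 104.5 to 112 TPM in treated and 109 to 124 TPM in control libraries, with all but control library 3 above the treated libraries. The means were 109 ± 2.42 and 119 ± 5.68 TPM (SD, n = 6 each; log2 fold change −0.14 ± 0.03 SE, edgeR adjusted p = 4.01e-04). Its counts were not whole in any library and it overlaps Cog5 on the other strand, so its values are less certain. Sox9, a cartilage lineage factor gene that is also a Wnt target in gut, ranged over 7.15 to 8.60 TPM in treated and 7.28 to 10.96 TPM in control libraries, all but control library 6 above every treated one (log2 fold change −0.26 ± 0.08 SE, edgeR adjusted p = 0.00889). The call of Sox9 ended with limma on log2(TPM + 0.1), at adjusted p = 0.0509. Ppard, a nuclear receptor gene also counted as a Wnt target, did not pass (log2 fold change −0.11, adjusted p = 0.117), except without α-asarone replicate 3 (edgeR adjusted p = 0.0391).

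Of 69 genes on the Hedgehog lists 5 were in the table and 3 tested, with 2 higher, none lower and a median log2 fold change of 0.12, beside 12.9% higher among all tested genes. The called genes were Smo, already given above, and Tpra1, so that the list adds 1 call among 2 genes. Tpra1 carries no deposited Hedgehog or smoothened term. Of 10 genes with such a term 9 were tested, with 2 higher (Smo and Wnt9a), none lower and a median log2 fold change of 0.008. Tpra1, a membrane protein gene placed with the transducers, ranged over 47.0 to 53.0 TPM in treated and 40.6 to 49.5 TPM in control libraries, 4 treated ones above every control (log2 fold change 0.12 ± 0.04 SE, edgeR adjusted p = 0.0357). Of 23 alternative settings 10 ended that call, with adjusted p from 0.00664 to 0.111 over all 23. Shh, the ligand gene, was listed at 0 in every library. Ccnd2, a cyclin gene on the list of Hedgehog targets, had 234 ± 2.90 TPM (SD, n = 6) in treated and 237 ± 6.60 TPM (SD, n = 6) in control libraries and did not pass (log2 fold change −0.02, adjusted p = 0.472). Jag2, the Notch ligand gene of the same list, lay under the filter of 1 TPM in 6 libraries, at 0.226 to 0.686 TPM in treated and 0.643 to 1.51 TPM in control libraries. Without that filter Jag2 fell by 1.04 ± 0.23 (SE) on the log2 scale (edgeR adjusted p = 8.27e-04), from 11 to 41 counts per library. Patched, GLI and Sufu genes were not analysed here.

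Genes of the primary cilium, where Smoothened acts, gave no call. Of 51 on the list 4 were in the table and tested, with a median log2 fold change of −0.01. With 30.3% of all tested genes called, so few genes cannot show a lower share. Ift20 and Ift46, of the intraflagellar transport machinery, had changes of −0.09 and 0.01. Tulp3, which brings receptors into the cilium, had −0.04, and B9d1, of the ciliary gate, had 0.02 with a wide interval from −18.7% to 26.7%. The adjusted p of these 4 genes in edgeR lay between 0.308 and 0.938. Ift46 had opposite signs on counts (0.01) and with limma on log2(TPM + 1) (−0.07).

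**Figure D3:**
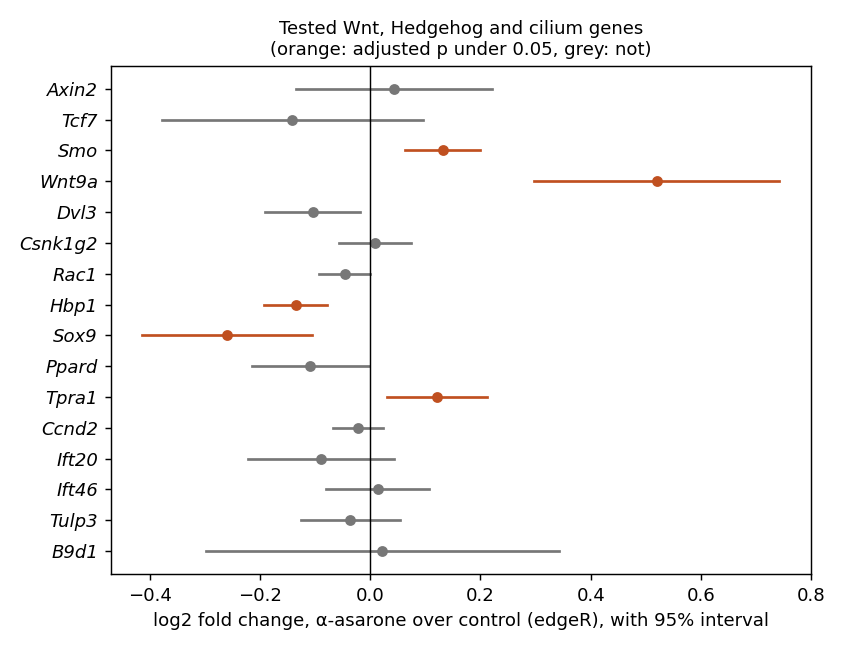
Log2 fold change (horizontal axis, α-asarone over control) with 95% confidence interval for the 16 tested genes of the Wnt, Hedgehog and cilium lists. Smo, Wnt9a and Tpra1 were called higher and Hbp1 and Sox9 lower (orange), and the intervals of Axin2 and Tcf7 cross 0.

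The deposited annotation gave a wider view. A Wnt, catenin, Hedgehog or smoothened term stood on 39 genes, of which 32 were tested, 4 called higher and 7 lower, with a median log2 fold change of −0.01. These shares are close to the 12.9% higher and 17.4% lower among all tested genes. Wnt9a, Tgfb1, Smo and Paf1 were the 4 higher genes. Tgfb1, a growth factor gene, had a log2 fold change of 0.17 ± 0.03 SE (edgeR adjusted p = 1.36e-05). Paf1, of the RNA polymerase II elongation complex, had 0.10 ± 0.04 SE (edgeR adjusted p = 0.0371), a call that 12 of 23 alternative settings ended. The falls were of Col1a1, the collagen of bone (−0.50), the integrin gene Itga3 (−0.41), the transcription factor gene Klf4 (−0.31), Jup, which encodes the β-catenin relative plakoglobin (−0.28), Sox9, Slc9a3r2, a scaffold gene (−0.23), and Emd, the nuclear envelope gene emerin (−0.14). Emd falls outside the naming rule and was chosen after its values were seen, its counts were whole in none of the libraries, and 13 of 23 settings ended its call. The fall of Itga3 shrank to −0.16 with limma on log2(TPM + 1) (adjusted p = 0.275), and 11 of 23 settings ended the call of Slc9a3r2. The most abundant genes with such a term that did not pass were Apoe, Serpinf1, Rac1 and Ddx3x, with log2 fold changes of −0.02, 0.0006, −0.05 and 0.02.

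Some markers of the cells that such a culture can hold moved between the groups beside these results. The summed level of 4 myeloid genes (of 15 listed) was 834 to 923 TPM in controls and 967 to 1123 TPM with α-asarone, and that of 5 adipocyte genes (of 12) was 361 to 417.5 TPM and 423 to 538 TPM. The myeloid genes did not move together: Cfp (log2 fold change 0.51) and Spi1 (0.19) rose, Itgb2 fell (−0.10), and Clec10a (0.11, edgeR adjusted p = 0.0717) did not pass. Most of the difference in their sum was that of Cfp, with 332 ± 23.1 TPM (SD, n = 6) in controls and 469 ± 45.6 TPM (SD, n = 6) in treated libraries. Of the adipocyte genes 4 rose, Angptl4 (log2 fold change 1.44), Plin4 (0.43), Lipe (0.40) and Cd36 (0.24). Pparg (−0.05, edgeR adjusted p = 0.43) did not pass. Most of the adipocyte sum was Cd36, with 308 ± 22.7 TPM (SD, n = 6) in controls and 366 ± 38.8 TPM (SD, n = 6) in treated libraries. The contractile marker Cnn1 (1 of 8 smooth muscle genes) had 21.8 to 30.3 TPM in controls and 6.82 to 9.97 TPM with α-asarone. The osteoclast marker Acp5 (1 of 9) had 57.9 to 78.4 TPM in controls and 25.1 to 38.4 TPM with α-asarone. Of the stromal markers 1 of 14, Col1a1, was analysed, at 1720 to 2103 TPM in controls and 1208 to 1428 TPM with α-asarone. Endothelial genes (2 of 10) summed to at most 2.11 TPM and B cell genes (2 of 10) to at most 0.099 TPM. Of 29 osteoblast genes 4 were in the table and 2 tested. Col1a1 was called lower, and Dlx3 did not pass (log2 fold change 0.27, edgeR adjusted p = 0.248). Dlx3 was at means of 1.65 TPM in controls and 1.97 TPM in treated libraries. The part of these shifts in the changes of Smo, Wnt9a, Tpra1, Hbp1 and Sox9 was not tested.

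**Figure D4:**
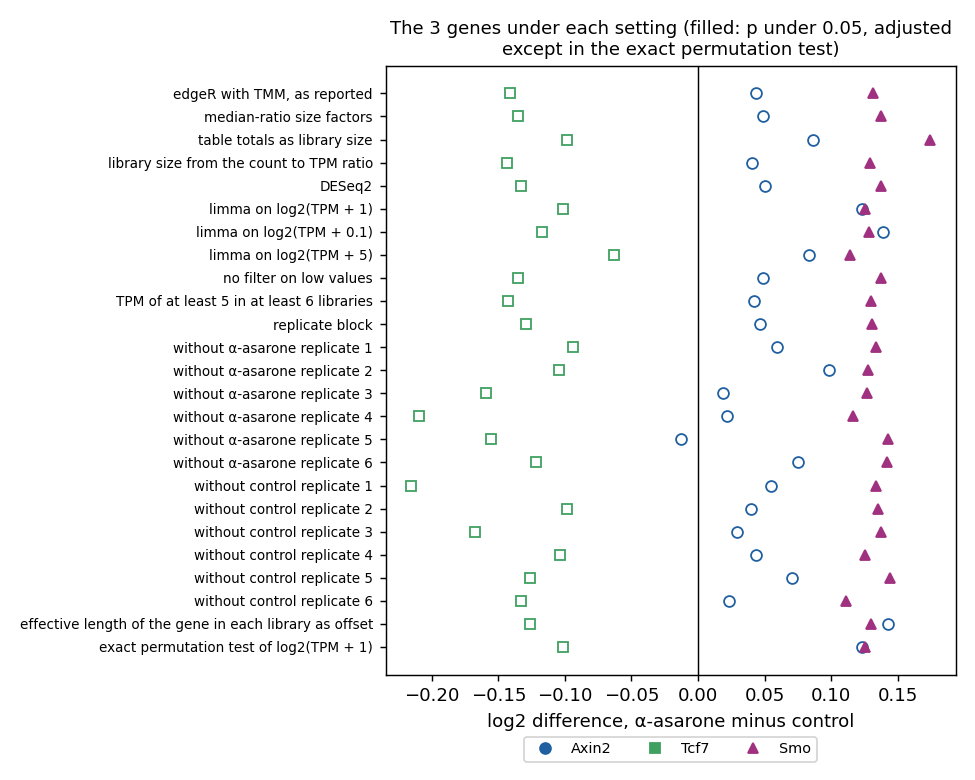
Log2 difference between α-asarone and control (horizontal axis) for Axin2, Tcf7 and Smo under the reported test and 24 alternatives (vertical axis); the limma and permutation values are on a log2(TPM + pseudocount) scale. Filled symbols mark p under 0.05, adjusted in all but the exact permutation test. Smo lies between 0.11 and 0.17 and is filled throughout, and Axin2 and Tcf7 are open throughout.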

How the data were processed

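RNA was sequenced from 6 α-asarone and 6 control libraries. The authors deposited 1 table with TPM and estimated counts (2 decimals, 7.45% to 9.57% of a library's values not whole), per the file headers. The submitters' processing notes name GRCm38 and mm10. An aligner, a quantifier, versions and a strand setting were not given in the sources used here. Over its 658 genes the table sums to 5.36% to 5.67% of the TPM scale and 843595 to 1224256 estimated counts per library, which are not library depths. The series' design text calls the 6 libraries of each group biological replicates. It names no animals or cultures, and p-values therefore measure only how these libraries vary, which may be technical. The 30 within-group pairs had chi-square values of 2.26 to 11.4 per degree of freedom, above sampling noise, so each library counted once.

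Counts were rounded and tested with edgeR 4.0.16 (quasi-likelihood, R 4.3.3; TMM factors 0.976 to 1.03; no covariate) in the 512 genes that reached 1 TPM in 6 or more libraries. A gene was called where the Benjamini-Hochberg adjusted p fell under 0.05. Standard errors and 95% intervals came from the same fit. The test was checked on simulated data. Alternatives used limma 3.58.1, DESeq2 1.42.0, other library sizes, filters and pseudocounts, a replicate block and each library left out. Positions and overlaps came from GENCODE M21 on GRCm38, to which all 658 identifiers matched, and promoter windows from RefSeq (GRCm38.p6), which held all 3 members. Axin2 overlaps an antisense gene, Tcf7 an antisense gene and a lincRNA gene on its own strand, and Smo a processed pseudogene on its own strand, and reads of such overlapping genes may not be fully separated. The members and lists were chosen with earlier results of these data known.

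Named genes were the 3 members, list genes in the table, genes with a deposited Wnt or Hedgehog term (8 called with the largest change, and 4 others by TPM), the 3 genes most like each member in pattern (1 of them is not reported here) and the 4 called genes nearest to it in count. Marker genes are given by name or as sums over their list.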

Additional observations from a re-analysis of the deposited data

Results flagged for a closer look

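Outlying values were sought in 76 groups of 6 TPM values of named genes. Cell type markers other than Il7r, Col1a1 and Sox9 were left out, as were genes named only for a pattern like a member's. In 1 group an end value had a gap to the next over Dixon's critical value, while chance alone would give about 3.8. Serpinf1, which encodes the secreted factor PEDF and carries a deposited Wnt term, stood lowest in control replicate 2, at 993 TPM. The remaining 5 control libraries had 1154 to 1237 TPM. Axin2, Tcf7 and Smo had no such value in either group.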

How the results depend on the processing

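Smo had p under 0.05 in 24 of 24 alternatives, at log2 changes of 0.11 to 0.17, and Tcf7 and Axin2 passed in none. The p was adjusted in all but the exact permutation test. Leaving out each library in turn gave 0.1111 to 0.1447 for Smo, −0.2154 to −0.09424 for Tcf7 and −0.01288 to 0.09826 for Axin2, whose sign turned without α-asarone replicate 5. The offset for effective length was chosen after seeing the data. The number of genes called was 116 to 189 against 155, 138 to 152 with each library left out. With table totals as library size the calls were 127 rises and 62 falls (67.2% rises, against 42.6% in the reported test), and the median of all genes moved to 0.04. Same-numbered libraries had correlations from −0.0031 to 0.128, with 1 of 6 over 0.1, and 2 of 6 had their highest correlation within the number, so the numbers were not taken as pairs. With the replicate block 168 genes were called, and the log2 changes were 0.131 for Smo, 0.046 for Axin2 and −0.129 for Tcf7.

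The check of other named genes covered 34, with the same markers and similar genes left out. Of 778 alternative values 674 kept direction and call and 75 lost a call (9 genes). A call was gained in 5 (2 genes), and 24 changed sign (8 genes), none of them for a called gene. With table totals the sign turned for Ccnd2 (0.01956), Tulp3 (0.006662) and Apoe (0.02294). Ift46 turned with limma at pseudocounts of 1 (−0.07211), 0.1 (−0.07331) and 5 (−0.0672) and with the length offset (−0.07215). Serpinf1 turned with the library size from the count to TPM ratio (−0.00186) and with the 5 TPM filter (−0.0004612). With each library left out, values ran from −0.009582 to 0.02951 for Csnk1g2, −0.01074 to 0.03271 for Ift46, −0.07719 to 0.1074 for B9d1, −0.05047 to 0.001324 for Apoe, −0.02791 to 0.02112 for Serpinf1 and −0.001177 to 0.03972 for Ddx3x. The cause of these changes was not tested.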
